A study of Mus musculus with 28 samples.

Results

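The comparison described here set the dorsal hippocampus of mice that were fear conditioned under the ligand C118 against the dorsal hippocampus of mice that were not conditioned and received no treatment, called Basal. It uses 9 of the 28 libraries in the raw gene count matrix, chosen by title: the 5 C118 libraries, numbered 7, 13, 20, 33 and 38, and the 4 Basal libraries, numbered 1, 9, 14 and 27. After the summary rows were dropped, 16735 of 50686 genes had enough counts to be tested, and the account runs across all of them. Every mouse was a male C57Bl6, and no group carried an engineered allele in the labels. The series combined auditory fear conditioning, in which a tone is paired with an aversive stimulus, with drugs that act on the glucocorticoid receptor. Its other conditioned groups received vehicle, corticosterone (Cort), the receptor antagonist RU486 or a second coded ligand, C108. The labels give neither the chemical nature, dose and timing of C118 nor the age of the mice, and do not say that each library came from its own animal. C118 and Basal differ in conditioning, in handling and in the ligand at once, and these cannot be told apart within this pair. Tests against the vehicle group, which was also conditioned, are therefore given beside it.

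Corticosterone, released from the adrenal gland during stress, crosses into the brain and binds the glucocorticoid receptor, encoded by Nr3c1, and the mineralocorticoid receptor, encoded by Nr3c2. The hippocampus holds both receptors. The ligand-bound glucocorticoid receptor enters the nucleus and raises transcription of targets such as Fkbp5, a chaperone partner that lowers the receptor's affinity for hormone, Tsc22d3 (GILZ), an anti-inflammatory leucine zipper protein, and the kinase Sgk1. Learning and neuronal firing also induce immediate early genes such as Fos, Arc and Npas4, which rise and decay quickly.

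The libraries were of even depth, with 18527682 to 20055095 gene counts in Basal and 17334022 to 20295147 in C118. Levels are normalised read counts on the CPM scale, each count being divided by the TMM-scaled size of its library, always in the order Basal 1, 9, 14 and 27, then C118 7, 13, 20, 33 and 38. Markers of the dissected tissue were present: 12 of 13 CA1 markers, 16 of 17 CA3 and CA2 markers and 19 of 19 dentate gyrus markers were tested. Several libraries stood apart on marker scores, a score being the mean log2 CPM of a list with each gene centred over the 28 libraries. Basal 9 was the Basal library closest to C118 for many of the genes below. C118 33 and C118 38 had the lowest endothelial and pericyte scores of their group, C118 20 and C118 38 the highest interferon scores, and C118 13 the highest choroid plexus score. In pairwise chi-square tests of the counts, C118 38 differed from the other 4 C118 libraries by 39.09 to 67.5 per degree of freedom, against 5.94 to 13.54 among those 4. The score of 19 neocortex markers was 0.277, 0.291, 0.256 and 0.2 in Basal and 0.009, -0.123, -0.07, -0.222 and -0.166 in C118, without overlap. Any result between these groups therefore moves with the neocortex score, and its part in the results was not tested apart from the fits with the score as a covariate given below.

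C118 libraries differed from Basal at 648 genes, 3.87% of those tested (edgeR quasi-likelihood test, adjusted p under 0.05). Of these, 291 genes were higher (1.74%) and 357 lower (2.13%), and 3164 genes had an unadjusted p under 0.05. Counts in the gene lists below are to be read beside these shares, and 1 call is not a result about its list. The median log2 fold change over all tested genes was 0.009. Changes above 1 on the log2 scale numbered 31 rises and 59 falls. Without reference to a test, all 5 C118 libraries lay above all 4 Basal libraries at 713 genes (4.26%) and below them at 830 (4.96%). The number of calls depended on single libraries: it was 241 without Basal 1, 209 without Basal 14, 350 without Basal 27, 364 without C118 33 and 403 without C118 38, while it was 902 without Basal 9. In all, 178 genes, 79 higher and 99 lower, were called with all libraries and in each of the 9 fits that left out 1 of them. With the neocortex score as a covariate 10 genes were called, of which 9 were higher and 1 lower. With the thalamus and neocortex scores 7 were called, of which 4 were higher (Fkbp5, Plin4, Gm45187 and C2cd2) and 3 lower (Cdh10, Pdgfrb and Gm10863). C2cd2 and Gm10863 were picked out after their values were seen. A call lost with the covariate does not by itself show a smaller difference. With the neocortex score the log2 fold changes were 1.47 for Cdkn1a, 2.41 for Ada, 1.03 for Tsc22d3, 1.21 for Ciart and -0.62 for Kif21b, beside 1.48, 2.52, 1.05, 1.28 and -0.75 without it. Those of Kdr and Grik3 were nearer 0, at -1.38 and -0.15 beside -1.99 and -0.57. Other falls also moved nearer 0, among them Kcnj9 and Kcna6, given with the potassium channels below. The same Basal libraries served the other conditioned groups, for which each count stands by itself. Vehicle had 688 calls (4.11%), of which 274 were higher (1.64%) and 414 lower (2.47%). Cort had 1049 (6.27%), 475 higher (2.84%) and 574 lower (3.43%). RU486 had 912 (5.45%), 436 higher (2.61%) and 476 lower (2.84%), and C108 had 1010 (6.04%), 467 higher (2.79%) and 543 lower (3.24%).

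**Figure D1:**
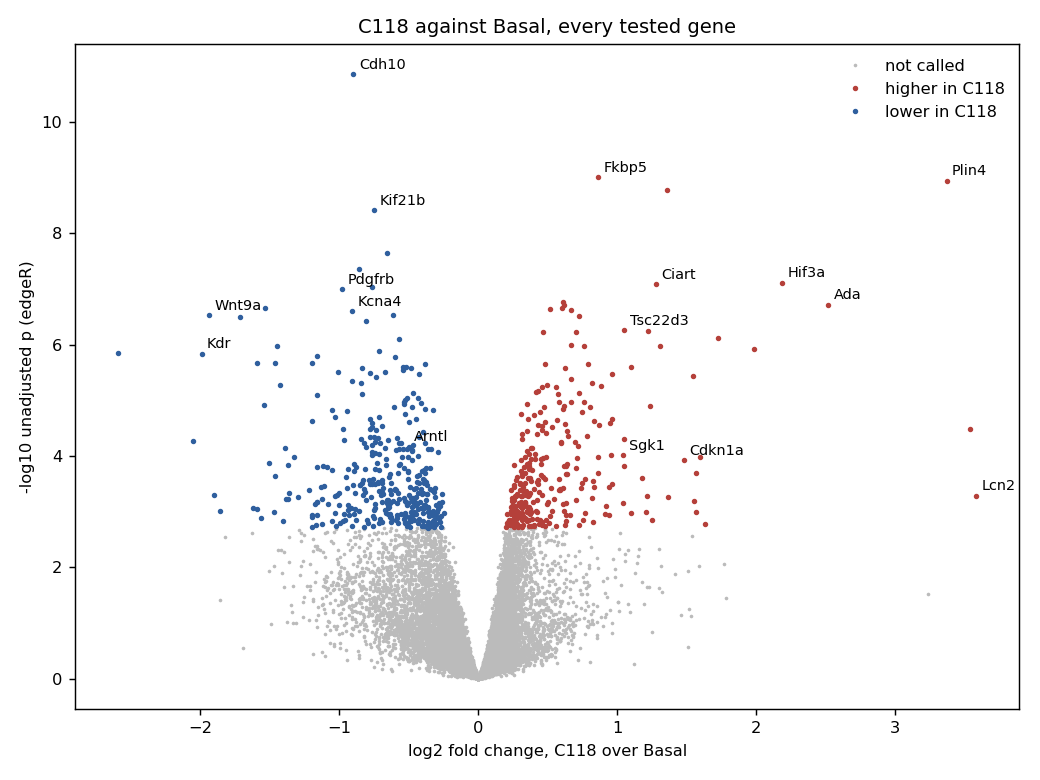
Log2 fold change of C118 over Basal (x axis) against the -log10 unadjusted edgeR p (y axis) for 16735 genes, each point 1 gene, with the 291 genes called higher in red and the 357 called lower in blue. Plin4 and Fkbp5 stand highest among the labelled rises and Cdh10 highest among the falls.

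Glucocorticoid receptor targets made up the clearest group of rises. Of 40 such genes, all 40 were tested, 23 rose, 1 fell and 16 were not called. By comparison, 1.74% of all tested genes rose and 2.13% fell. Their median log2 fold change was 0.61, against 0.009 over all genes, and 36 of 40 were positive. In 20 of the 40 every C118 library lay above every Basal library, against 4.26% of all tested genes. The list was assembled with earlier results of these data known, so its direction is no independent evidence. The count of rises was 15 without Basal 1 and 12 without Basal 14 and 3 with the neocortex score as a covariate. In that last fit the log2 fold changes were 1.03 for Tsc22d3, 1.15 for Arrdc2, 1.15 for Sgk1, 0.41 for Klf9 and 0.58 for Errfi1, beside 1.05, 1.31, 1.04, 0.46 and 0.67 without the score.

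Fkbp5 (chromosome 17, 28399094 to 28517527, minus strand, mm10) had 61.0, 80.6, 59.9 and 68.4 CPM in Basal and 111, 110, 113, 132 and 146 CPM in C118. The highest Basal library, number 9, lay below the lowest C118 library, and the log2 fold change was 0.86 ± 0.10 (SE, adjusted p = 6.27e-06). Plin4, a perilipin that coats lipid droplets, had 0.921, 2.14, 1.27 and 0.531 CPM in Basal and 17.1, 9.73, 13.4, 13.7 and 8.18 CPM in C118. No Basal library came near the C118 range, and the log2 fold change was 3.37 ± 0.36 (adjusted p = 6.27e-06). The gene (chromosome 17, 56100591 to 56109803, minus strand) overlaps Hdgfl2 on the other strand, which was not called (log2 fold change 0.12, adjusted p = 0.651). Fkbp5 and Plin4 were called in every alternative fit of this comparison.

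Hif3a, a hypoxia-inducible factor subunit that can dampen the hypoxia response, had 1.43, 5.26, 2.03 and 1.35 CPM in Basal and 13.3, 10.8, 12.2, 12 and 8.33 CPM in C118. The groups did not overlap, and the log2 fold change of 2.19 ± 0.30 (adjusted p = 0.000151) became 2.82 without Basal 9. Tsc22d3 had 39.2, 63.2, 42.1 and 38.1 CPM in Basal and 92.3, 93.5, 103, 104 and 80.2 CPM in C118. Again Basal 9 was the nearest to C118, and the log2 fold change was 1.05 ± 0.16 (adjusted p = 0.000355). Arrdc2, an alpha-arrestin, rose by 1.31 ± 0.21 on the log2 scale (adjusted p = 0.000527), from 8.5, 15.9, 8.58 and 8.59 CPM to 23.4, 22.9, 25.3, 31.2 and 25.4 CPM.

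For Sgk1 the Basal libraries stood at 55.5, 130, 58.3 and 49.6 CPM and the C118 libraries at 168, 130, 153, 150 and 153 CPM. Basal 9 reached the level of the lowest C118 library. The log2 fold change of 1.04 ± 0.23 (adjusted p = 0.00894) missed the threshold without Basal 1 (adjusted p = 0.0535) and without Basal 14 (adjusted p = 0.0585). Cdkn1a, the cell cycle inhibitor p21, had 6.71, 11.7, 5.99 and 5.36 CPM in Basal and 21.8, 22.5, 18.5, 21.9 and 18.3 CPM in C118, without overlap. Its log2 fold change was 1.48 ± 0.32 (adjusted p = 0.0101), and without Basal 14 the adjusted p was 0.0568. Lcn2, an iron-carrier-binding acute phase protein, was at 0, 0, 0 and 0.0965 CPM in Basal and at 0.273, 0.753, 0.474, 0.211 and 0.201 CPM in C118 (adjusted p = 0.0241). These levels rest on few counts, and the call was lost without Basal 1, Basal 14 or C118 13 (adjusted p = 0.0928, 0.104 and 0.0648).

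The transcription factors Klf9 and Klf15 rose by 0.46 ± 0.09 (adjusted p = 0.00392) and 0.70 ± 0.15 (adjusted p = 0.00624) on the log2 scale. They were the called members among 14 Kruppel-like factors, of which 5 were positive, and both calls held in each fit without 1 library. The other rises of the target list were Mertk, Errfi1, Sult1a1, the metallothioneins Mt1 and Mt2, Mfsd2a, Gjb6, Zbtb16, Map3k6, Txnip, Tiparp, Ddit4 and Nfkbia, with log2 fold changes between 0.42 for Zbtb16 and 0.96 for Sult1a1. Several of these names were taken after their values were seen. Per1, a clock gene and receptor target, had 60.5, 52.9, 53.3 and 51.2 CPM in Basal and 60.3, 58.6, 57.8, 53.2 and 69.2 CPM in C118, with overlapping groups (log2 fold change 0.14 ± 0.12, adjusted p = 0.584). Dusp1, a phosphatase that switches off MAP kinases, stood at a log2 fold change of 0.02 (adjusted p = 0.975).

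**Figure D2:**
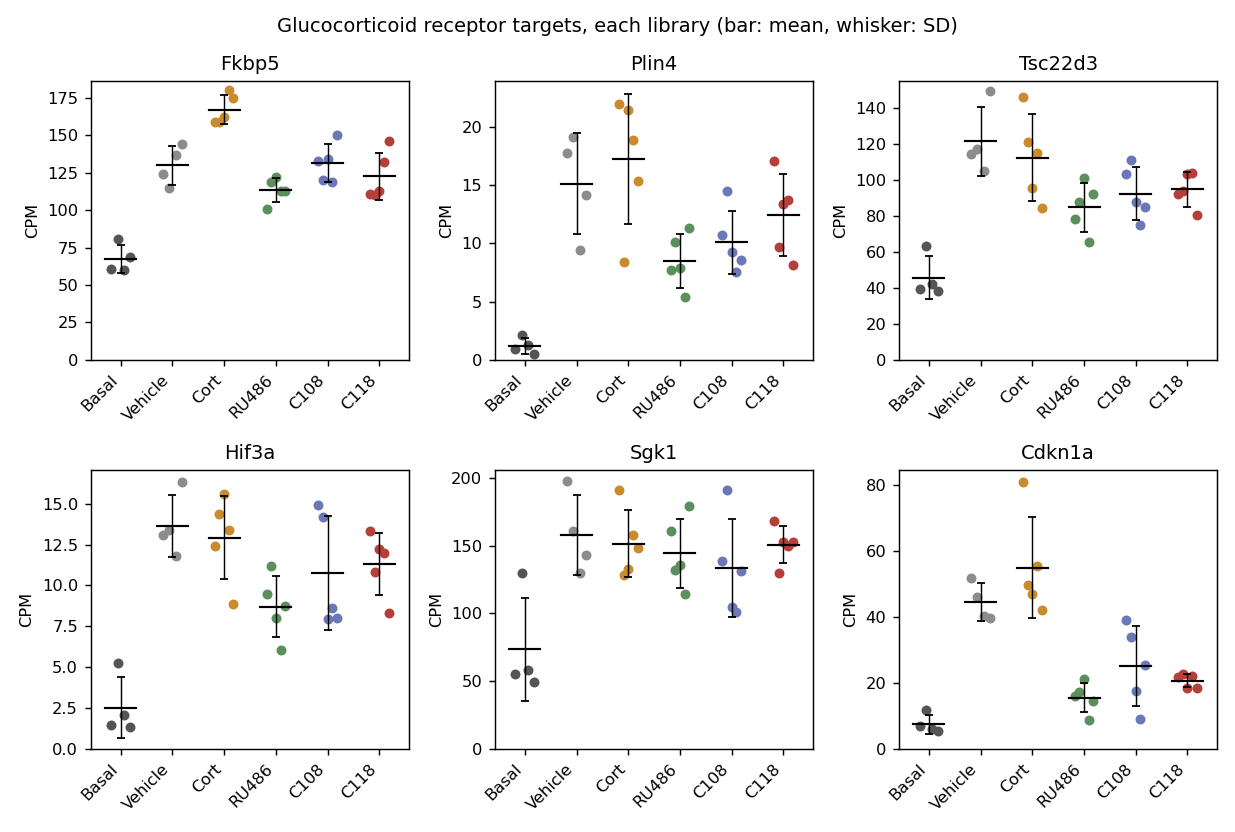
CPM (y axis, from 0) of 6 glucocorticoid receptor targets in each of the 28 libraries, grouped on the x axis, with a bar for the group mean and a whisker for the SD. For Fkbp5, Plin4, Tsc22d3, Hif3a and Cdkn1a the 5 C118 points lie above the 4 Basal points, and for Sgk1 the Basal point at 130 reaches them.

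The receptor binds a palindrome whose core spacing can be written ACANNNTGT. This pattern, which reads the same on both strands, was searched in the 250 bases before each RefSeq start site (GRCm38.p6). It was present in 5.835% of 32851 windows, in at least 1 window of 4.71% of 11796 tested genes with a RefSeq window, and in 8 of 34 target list genes with one. Target list genes had 1.5 windows each on average and tested genes 1.28. Among 22 target genes that rose and had a window, 5 held a match, and Fkbp5, Plin4, Hif3a and Tsc22d3 held none in these windows. The 5 genes follow with 25 bases on each side, 5′ to 3′ toward the start site, and with the match in capitals. They are given as examples of the pattern. Matches were found in 22.7% of target genes that rose and in 23.5% of all target genes with a window. Bcl2l1, Fam107a and Glul, which were not called (adjusted p = 0.225, 0.187 and 0.525), held a match too.
Sgk1: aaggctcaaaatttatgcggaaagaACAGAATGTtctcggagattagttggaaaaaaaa
Mt1: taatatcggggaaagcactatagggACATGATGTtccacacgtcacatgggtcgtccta
Map3k6: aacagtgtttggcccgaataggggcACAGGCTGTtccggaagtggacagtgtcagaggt
Txnip: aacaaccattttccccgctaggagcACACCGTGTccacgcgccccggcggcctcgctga
Lcn2: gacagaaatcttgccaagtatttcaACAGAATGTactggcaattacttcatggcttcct
The stretches lie at chr10:21993679-21993737 (plus strand), chr8:94178972-94179030 (plus), chr4:133240614-133240672 (plus), chr3:96557762-96557820 (plus) and chr2:32387858-32387916 (minus). The Sgk1 match starts 186 bases before 1 of the 6 RefSeq starts of the gene, and another of its windows holds a match 127 bases before its start. A match describes letters and is not evidence of a binding site.

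Against the vehicle group, none of the targets was called, and 0 of all genes were. For Fkbp5 the group means were 67.5 ± 9.53 CPM in Basal (SD, n = 4), 123 ± 15.9 in C118 (n = 5), 130 ± 13 in Vehicle (n = 4) and 167 ± 9.89 in Cort (n = 5). The C118 minus Vehicle difference was -0.09 on the log2 scale with a 95% interval from -0.28 to 0.11. The C118 minus Cort difference was -0.44 (interval -0.63 to -0.26), with an adjusted p of 0.101. Cdkn1a means were 7.43 ± 2.88 CPM in Basal, 20.6 ± 2 in C118, 44.4 ± 5.72 in Vehicle and 54.9 ± 15.2 in Cort. Its difference was -1.11 (interval -1.71 to -0.51, adjusted p = 0.201) from Vehicle and -1.41 (interval -1.98 to -0.84, adjusted p = 0.101) from Cort. The unadjusted intervals of these 3 differences from Cort or Vehicle leave out 0, while none passes adjustment over 16735 genes. For Plin4 the difference from Vehicle was -0.29 (interval -0.85 to 0.28) and for Sgk1 -0.06 (interval -0.51 to 0.39), so sizeable differences in either direction fit these intervals. The target list had medians of 0.61 for C118, 0.9 for Vehicle, 0.89 for Cort, 0.61 for RU486 and 0.56 for C108 over the shared Basal libraries, with 23, 25, 30, 17 and 24 rises.

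Of 15 tested genes for steroid receptors and hormone activation, Fkbp5 rose, Nr3c1 fell and the list median was -0.02. Nr3c1 had 129, 96.7, 123 and 122 CPM in Basal and 101, 85.2, 90.2, 76.8 and 78.1 CPM in C118. Basal 9 lay within the C118 range, and the log2 fold change was -0.45 ± 0.09 (adjusted p = 0.00334). The call held in each fit without 1 library and was lost without C118 33 and 38 together (adjusted p = 0.0651). Nr3c2 had 369, 383, 356 and 369 CPM in Basal and 315, 288, 282, 285 and 332 CPM in C118. All C118 libraries were lower, yet the log2 fold change of -0.30 ± 0.13 was not called (adjusted p = 0.215), and it passed when the 2 groups were fitted alone (adjusted p = 0.0344). An antisense-strand neighbour that overlaps Nr3c2, Gm10649, fell by 0.64 (adjusted p = 0.0156).

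The clock turns by a feedback loop: ARNTL (BMAL1) and CLOCK drive E-box genes, among them the repressors CIART and NR1D1 (REV-ERB alpha), and NR1D1 in turn represses Arntl. Of 21 clock genes, 5 rose, 1 fell and the median log2 fold change was 0.05, while 1.74% of all tested genes rose and 2.13% fell. Ciart (chromosome 3, 95878503 to 95882251, minus strand) had 3.43, 3.29, 3.3 and 4.63 CPM in Basal and 7.33, 11.8, 8.95, 8.3 and 8.28 CPM in C118. The groups did not overlap (log2 fold change 1.28 ± 0.18, adjusted p = 0.000151). Nr1d1 had 53.9, 49.3, 54.1 and 57.2 CPM in Basal and 76.1, 91.8, 76, 73.4 and 92.2 CPM in C118 (log2 fold change 0.61 ± 0.12, adjusted p = 0.00255). Its relative Nr1d2 rose by 0.49 ± 0.09 (adjusted p = 0.00135), again without overlap.

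Arntl moved the other way. It had 48.2, 42.7, 48.2 and 50.8 CPM in Basal and 34.1, 30, 30.4, 33.3 and 39.8 CPM in C118, with every C118 library lower (log2 fold change -0.50 ± 0.11, adjusted p = 0.00709). The output factor Dbp and the repressor Bhlhe40, named after their values were seen, were called at 0.61 ± 0.15 (adjusted p = 0.0202) and 0.44 ± 0.13 (adjusted p = 0.0423). The clock count was 3 rises without Basal 1, Basal 9 or Basal 14, and Dbp and Bhlhe40 were each lost in more than 1 such fit (adjusted p = 0.0711, 0.0583 and 0.0638 for Dbp, and 0.159, 0.0543 and 0.153 for Bhlhe40). Dbp was also lost without C118 13 (adjusted p = 0.0562), and Bhlhe40 without C118 7, 20, 33 or 38 (adjusted p = 0.0719, 0.0515, 0.0633 and 0.1). Ciart, Nr1d1, Nr1d2 and Arntl were called in each fit without 1 library. The labels give no time of day for any library, so a difference in collection time between groups was not tested. The C118 minus Vehicle difference of Ciart was 0.65 (interval 0.29 to 1) and did not pass adjustment (adjusted p = 0.201), with means of 8.92 ± 1.69 CPM in C118 (SD, n = 5) and 5.7 ± 1.08 in Vehicle (n = 4). Ciart had 8.66, 9.91, 6.6, 8.09 and 10.7 CPM in RU486, 4.97 to 7.98 CPM in C108 and 4.7 to 7.78 CPM in Cort. Over the shared Basal libraries, RU486 and C108 each had 5 clock rises and 1 fall. Vehicle had 2 rises and 2 falls, and Cort 1 rise and 0 falls. Over all tested genes, rises were 2.61% in RU486, 2.79% in C108, 1.64% in Vehicle and 2.84% in Cort.

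The 250 bases before the Ciart start, chr3:95882229-95882478 on the minus strand in GRCm38.p6 from RefSeq, are shown because they hold 3 copies of the E-box CACGTG, in capitals.
Ciart: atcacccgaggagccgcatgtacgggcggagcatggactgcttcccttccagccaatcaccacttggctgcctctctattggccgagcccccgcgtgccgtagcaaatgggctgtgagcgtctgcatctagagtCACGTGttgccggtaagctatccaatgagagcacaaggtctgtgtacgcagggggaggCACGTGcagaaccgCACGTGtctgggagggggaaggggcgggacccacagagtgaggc
The copies begin 116, 58 and 44 bases before the start and do not overlap each other. The E-box, which reads the same on both strands, was present in 6.021% of all windows and in 5 of 18 clock genes with a window, against 9.53% of tested genes. The window of Nr1d1 held none. Ciart overlaps the antisense gene C920021L13Rik, and Nr1d1 overlaps Thra on the other strand; neither partner was called (log2 fold changes 0.15 and 0.04).

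**Figure D3:**
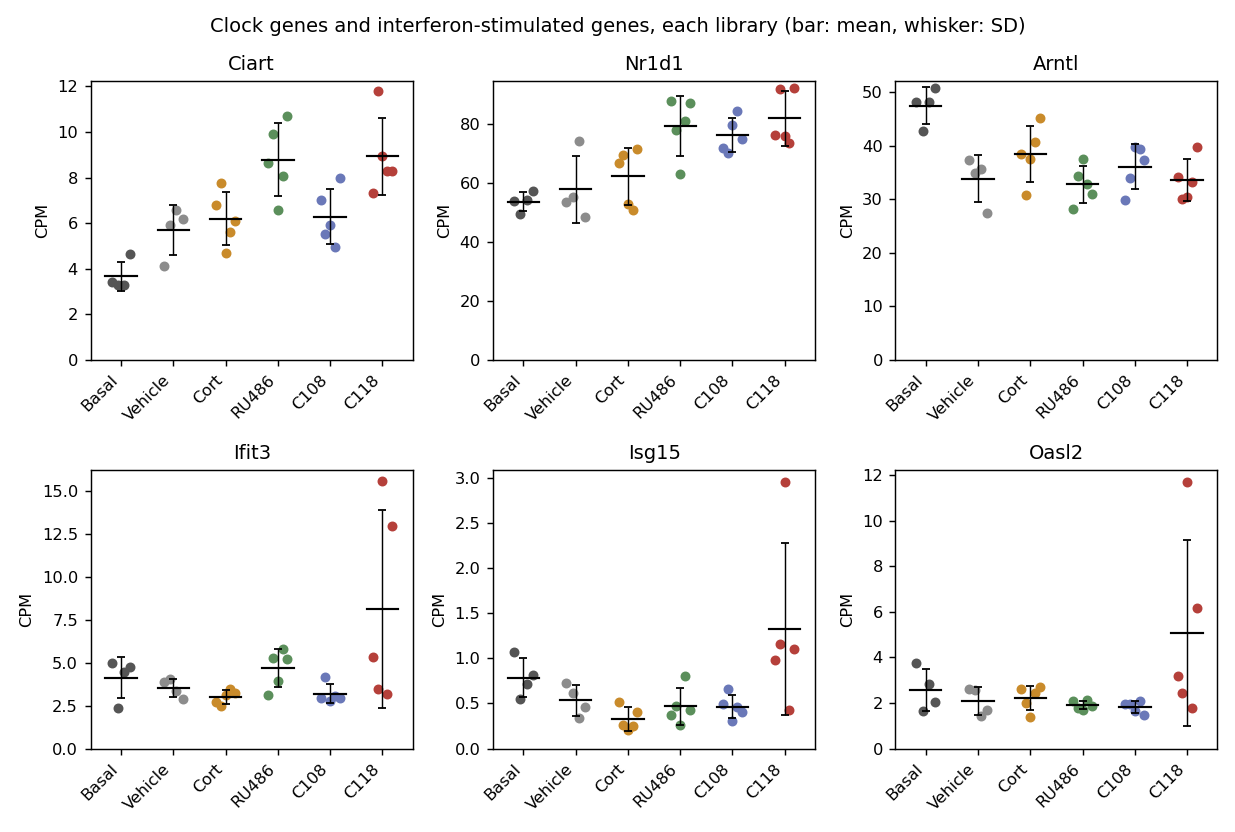
CPM (y axis, from 0) of 3 clock genes and 3 interferon-stimulated genes in each of the 28 libraries by group, with a bar for the mean and a whisker for the SD. All C118 points lie above the Basal points for Ciart and Nr1d1 and below them for Arntl, while Ifit3 and Oasl2 are high in the same 2 C118 libraries.

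Genes of lipid and purine handling changed at few loci, to be read beside the 1.74% of all tested genes that rose. Among 21 lipid droplet, lipolysis and ketone genes, Plin4, Pnpla2 and Dgat2 rose, none fell and the median was -0.01. Pnpla2, the adipose triglyceride lipase, rose by 0.59 ± 0.15 on the log2 scale (adjusted p = 0.0212), and Dgat2, which makes triglyceride, by 0.58 ± 0.14 (adjusted p = 0.0211). The list count was 1, Plin4 alone, without Basal 1, Basal 14 or Basal 27. Ada, the adenosine deaminase, had 0.154, 0.877, 0.457 and 0.289 CPM in Basal and 2.79, 1.62, 2.84, 2.48 and 2.91 CPM in C118. Its groups did not overlap (log2 fold change 2.52 ± 0.37, adjusted p = 0.000218). Ada and Xdh, the xanthine dehydrogenase (1.2 ± 0.33, adjusted p = 0.0351), were the called members of 15 purine breakdown genes, and the Xdh call was lost without any 1 of Basal 1, 9, 14 and 27 and C118 7, 13 and 20, leaving a count of 1.

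ErbB genes changed in both directions. For the lists of this paragraph, the shares over all tested genes were 1.74% higher and 2.13% lower. Among 11 ErbB receptors, neuregulins and regulators, 2 rose and 2 fell (median -0.19). The rises were 2 brakes on ErbB signalling: Errfi1 by 0.67 ± 0.12 (adjusted p = 0.00113) and Lrig1 by 0.47 ± 0.07 (adjusted p = 0.000355). Erbb3, a neuregulin receptor, had 16.6, 10.7, 14.9 and 17.8 CPM in Basal and 7.49, 6.14, 5.05, 4.12 and 3.21 CPM in C118. All C118 libraries were lower (log2 fold change -1.53 ± 0.23, adjusted p = 0.000218). Nrg2, a neuregulin, was lower too, with a log2 fold change of -0.73 (adjusted p = 0.011), and without Basal 14 the list had 1 fall in place of 2. Wnt9a, a secreted Wnt ligand, had 16.3, 4.55, 16 and 10.8 CPM in Basal and 3.12, 3.13, 2.79, 3.49 and 3.01 CPM in C118. Its Basal values ranged widely and Basal 9 was the nearest, but no library overlapped (log2 fold change -1.94 ± 0.29, adjusted p = 0.000228). Spred3, an inhibitor of Ras to MAP kinase signalling, fell by 0.49 on the log2 scale (SE 0.08, adjusted p = 0.00086). Of 25 Wnt genes 1 rose and 1 fell (median -0.13), and the rise was lost without Basal 1, 14 or 27. Of 16 MAP kinase phosphatases and Sproutys 1 rose (Dusp5, also counted among the immediate early genes below) and 2 fell (median -0.04). The rise was lost without Basal 1, 14 or 27 or C118 38, and 1 fall was left without Basal 1, 14 or 27 or any 1 C118 library.

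Genes tied to neuronal activity mostly did not pass. Of 35 immediate early genes, 3 rose, none fell, 23 were positive and the median was 0.09, while 1.74% of all tested genes rose. The 3 were Dusp5 (0.83 ± 0.20, adjusted p = 0.0199), Gadd45g (0.66, adjusted p = 0.0377) and Gadd45b (0.56, adjusted p = 0.0482). None of them was called without Basal 1, Basal 14, Basal 27 or C118 38, and 1 was called without C118 20 or C118 33. Fos had 5.12, 9.64, 3.66 and 4.73 CPM in Basal and 9.46, 6.37, 9, 5.76 and 13.7 CPM in C118, with overlap (log2 fold change 0.62 ± 0.41, adjusted p = 0.439). Arc had 99, 81.3, 88.8 and 98.7 CPM in Basal and 101, 112, 102, 74.1 and 115 CPM in C118, also with overlap (0.13 ± 0.34, adjusted p = 0.878). Npas4 stood between 3.33 and 5.84 CPM in Basal and between 2.95 and 6.12 CPM in C118 (0.09 ± 0.39, adjusted p = 0.936). These standard errors leave room for changes in either direction. A further list of 23 late activity-regulated genes had 2 falls and no rise (median -0.12, 8 positive), while 2.13% of all tested genes fell. In 5 of the 23 every C118 library lay below every Basal library, against 4.96% of all tested genes. The falls numbered 1 without Basal 1, C118 13 or C118 33 and 4 without Basal 9.

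Cdh10, Kif21b and Adcy8 fell. Cdh10, a type II cadherin of neuronal contacts (chromosome 15, 18818947 to 19014236, plus strand), had the smallest p of all genes. It stood at 51.5, 49.4, 49.6 and 49 CPM in Basal and 32.1, 25.4, 27.5, 23.3 and 25.4 CPM in C118. The 4 Basal libraries lay close together and above all C118 libraries (log2 fold change -0.90 ± 0.08, adjusted p = 2.29e-07). Kif21b, a neuronal kinesin, had 62.2, 53.3, 60.6 and 65.8 CPM in Basal and 39.5, 35.8, 35.2, 33.8 and 35.5 CPM in C118 (-0.75 ± 0.09, adjusted p = 1.28e-05). Adcy8, a calcium-stimulated adenylyl cyclase, had 22.7, 25.5, 22.5 and 28.1 CPM in Basal and 14.4, 12.4, 13.8, 11.9 and 15.7 CPM in C118 (-0.86 ± 0.12, adjusted p = 0.000106). Neither gene's groups overlapped. Cdh10 means were 26.8 ± 3.37 CPM in C118 and 27.5 ± 1.47 in Vehicle, and their difference of -0.04 had an interval from -0.21 to 0.14.

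Of 39 potassium channel genes 4 fell, none rose and 8 were positive (median -0.15), while 2.13% of all tested genes fell. Kcna4, an A-type voltage-gated channel, had 52.4, 29, 54.4 and 48.4 CPM in Basal and 27.4, 21.2, 22.5, 23.7 and 28 CPM in C118. The groups did not overlap, though Basal 9 lay just above the highest C118 library, and the log2 fold change was -0.91 ± 0.14 (adjusted p = 0.000218). The other falls were Kcnj9 (-0.67 ± 0.14, adjusted p = 0.00724), a G protein-gated inward rectifier, Kcnv1 (-0.55 ± 0.12, adjusted p = 0.00747) and Kcna6 (-0.36, adjusted p = 0.0350). The count was 2 without Basal 14 or Basal 27, with adjusted p = 0.052 for Kcnv1 without Basal 14 and 0.0543 for Kcnj9 without Basal 27. The Kcna6 call was lost without Basal 1, 14 or 27 or C118 7, 13, 20 or 33 (adjusted p from 0.0529 to 0.128). With the neocortex score as a covariate none of the 4 was called. Their log2 fold changes there were -0.862 for Kcna4, -0.518 for Kcnv1, -0.225 for Kcnj9 and -0.158 for Kcna6. Among 21 AMPA, NMDA and kainate receptor genes 2 fell (median -0.11), led by the kainate subunit Grik3 (-0.57 ± 0.13, adjusted p = 0.0116), and Grik3 alone was called in the fits without any 1 library other than Basal 9. None of 13 GABA-A receptors was called in the edgeR fit (median -0.08), 3 were lower at an unadjusted p under 0.05, and DESeq2 called 1. Htr1b, a serotonin receptor, fell by 0.84 on the log2 scale (SE 0.14, adjusted p = 0.00086).

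Vascular genes stood lower in C118, in some C118 libraries more than in others. Of 23 endothelial markers, 5 fell, none rose and 2 were positive, with a median of -0.54, while 2.13% of all tested genes fell. Of 17 VEGF and angiogenesis genes, 5 fell, of which Kdr, Tek and Tie1 are in both lists (median -0.23). Of 14 pericyte and smooth muscle genes, 2 fell and none was positive (median -0.48), and of 22 collagen and matrix genes 1 fell and 1 was positive (median -0.43). The other conditioned groups were lower than the shared Basal libraries too. Endothelial medians were -0.3 for Vehicle, -0.49 for Cort, -0.41 for RU486 and -0.75 for C108. In the same order, pericyte medians were -0.37, -0.41, -0.56 and -0.73, and VEGF medians -0.29, -0.24, -0.31 and -0.31. Collagen medians were 0.05, -0.14, -0.34 and -0.66, so that of Vehicle was not lower. In bulk tissue, fewer cells of a type and less RNA per cell cannot be told apart.

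Kdr, the main VEGF receptor of endothelial cells (chromosome 5, 75932827 to 75978458, minus strand), had 12.6, 4.82, 8.99 and 10.5 CPM in Basal and 3.28, 2.37, 2.89, 1.8 and 1.31 CPM in C118. All C118 libraries were lower, and the log2 fold change was -1.99 ± 0.33 (adjusted p = 0.000633). Vegfc, a VEGF receptor ligand, had 2.82, 2.85, 3 and 3.23 CPM in Basal and 1.2, 1.16, 1.47, 1.43 and 1.2 CPM in C118 (-1.2 ± 0.20, adjusted p = 0.000796). Vegfa fell by 0.47 on the log2 scale (SE 0.10, adjusted p = 0.00759), with 29.1 to 35.3 CPM in Basal and 18.9 to 25.8 CPM in C118. Pdgfrb, the PDGF receptor of pericytes, had 17.5, 13.3, 16.3 and 17.5 CPM in Basal and 8.25, 9.49, 9.37, 7.45 and 6.43 CPM in C118 (-0.98 ± 0.14, adjusted p = 0.000152). The groups of Vegfc, Vegfa and Pdgfrb did not overlap, and these calls and that of Kdr held in each fit without 1 library.

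Cldn5, the tight junction claudin of brain endothelium, had 15.9, 6.9, 15.6 and 15.5 CPM in Basal and 6.29, 6.02, 7, 3.59 and 1.66 CPM in C118 (-1.46 ± 0.34, adjusted p = 0.0153). Basal 9 lay among the C118 libraries, and the call was lost without Basal 1 (adjusted p = 0.0625) or Basal 14 (adjusted p = 0.0632). The endothelial list had 1 fall without Basal 1 or Basal 14, 2 without Basal 27, C118 33 or C118 38, and the VEGF list had 3 without any 1 of those 5 libraries. Tek, Eng and Tie1, the last named after its values were seen, were not called without Basal 1, Basal 14, Basal 27, C118 33 or C118 38 (adjusted p from 0.0815 to 0.178), and Tie1 was also lost without C118 20 (adjusted p = 0.0548). The pericyte list kept 1 fall without Basal 1, Basal 14 or C118 7, 33 or 38, and the 1 collagen list call, Fbn1, was absent without Basal 1 or Basal 27, while 3 were called without Basal 9. The score of endothelial cells was 0.714, 0.187, 0.483 and 0.568 in Basal and 0.242, 0.253, 0.24, -0.554 and -1.063 in C118, so C118 33 and 38 were the low ones, and the summed level of the 23 markers ran from 359 to 468 CPM in Basal and from 186 to 423 CPM in C118. Without C118 33 and 38 together, a setting chosen after seeing the data, 1 endothelial, 2 VEGF and 1 pericyte gene were called lower. With the endothelial score as a covariate Kdr, Vegfc and Pdgfrb were still called, and Cldn5 (adjusted p = 0.0611) and Vegfa (adjusted p = 0.0632) were not.

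**Figure D4:**
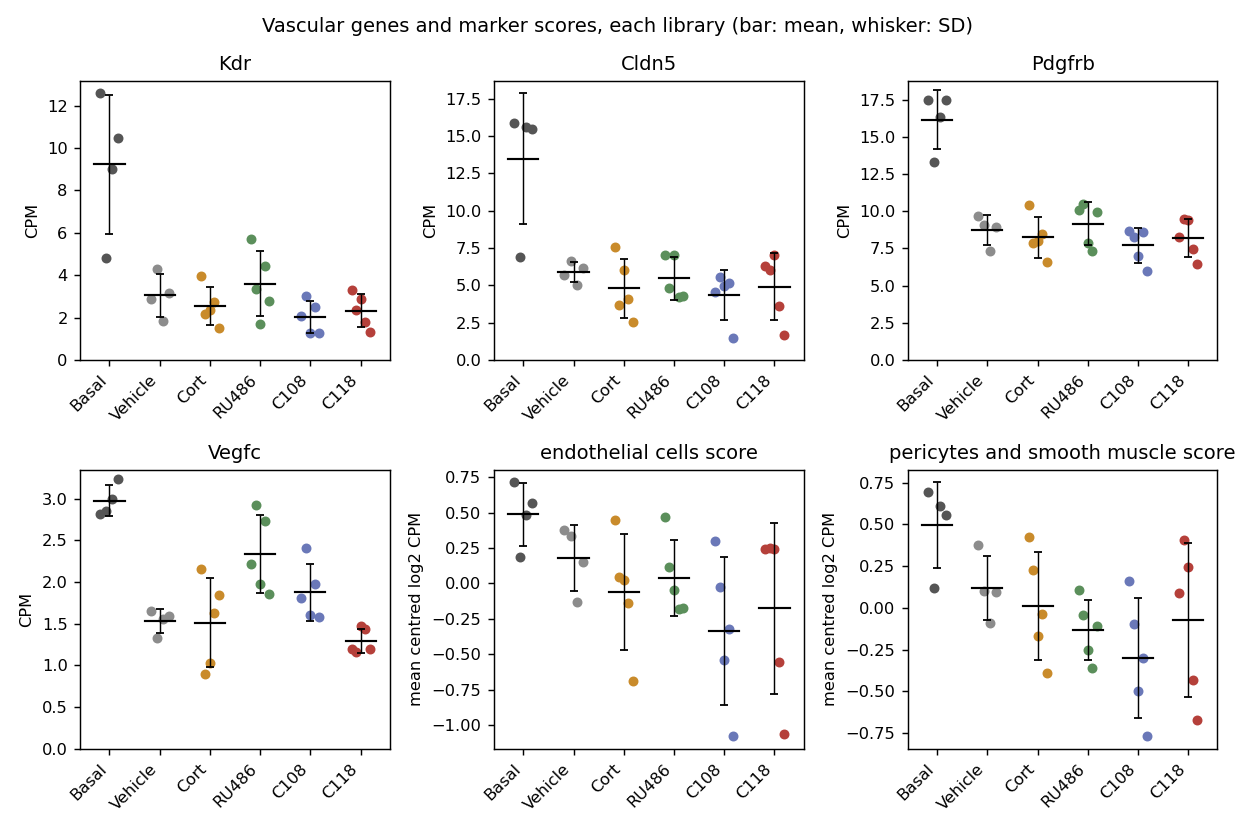
CPM (y axis, from 0) of Kdr, Cldn5, Pdgfrb and Vegfc, and the endothelial and pericyte marker scores (mean centred log2 CPM), in each of the 28 libraries by group, with a bar for the mean and a whisker for the SD. C118 33 and 38 are the low points of the C118 scores (-0.554 and -1.063 for endothelial cells), while the C118 points of Vegfc lie close together.

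Glial lists showed few calls, to be read beside the 1.74% of all tested genes that rose and the 2.13% that fell. Of 20 astrocyte genes 2 rose and the median was 0: Etnppl (1.21 ± 0.30, adjusted p = 0.0242) and the gap junction gene Gjb6 (0.70 ± 0.16, adjusted p = 0.0123), both lost without Basal 14, with 1 left without Basal 1, Basal 27, C118 13 or C118 20. Of 23 oligodendrocyte and myelin genes 3 fell and 5 were positive (median -0.16). Opalin, a myelin membrane protein, had 40.7, 28.2, 33.7 and 35.8 CPM in Basal and 22, 21.7, 26.5, 18.2 and 16.8 CPM in C118 (-0.72 ± 0.15, adjusted p = 0.00568). It did not overlap, and it was called in each fit without 1 library. The myelin count was 1 without Basal 1, Basal 14, C118 33 or C118 38 and 5 without Basal 9. edgeR and DESeq2 called 0 of 10 oligodendrocyte precursor genes and 0 of 18 microglia genes (medians -0.10 and 0.07). At an unadjusted p under 0.05, 1 precursor gene was higher and 2 lower, and 3 microglia genes were lower.

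Neocortex markers stood lower in C118. Of 19 neocortex markers 5 fell, none rose and 2 were positive (median -0.30), and 6 lay lower in every C118 library than in any Basal library. Over all tested genes, 2.13% fell and 4.96% lay lower in every C118 library. The other conditioned groups had neocortex medians of -0.35 for Vehicle, -0.19 for Cort, -0.27 for RU486 and -0.28 for C108 over the shared Basal libraries. Their highest neocortex scores were 0.021 in Cort, 0.087 in RU486 and 0.039 in C108, all below the lowest Basal score of 0.2. In Vehicle the highest was 0.392, above it. Fezf2, a deep-layer factor, had 19.6, 23.3, 24.8 and 23.7 CPM in Basal and 15.4, 13.4, 15, 11.7 and 11.6 CPM in C118 (-0.77 ± 0.20, adjusted p = 0.0249), and Tbr1 fell by 0.47 on the log2 scale (SE 0.12, adjusted p = 0.0278). The neocortex count was 2 without Basal 1, C118 13 or C118 20, 3 without Basal 27, and 1 without Basal 14 or C118 33. The summed level of the 19 markers was 906 to 1000 CPM in Basal and 764 to 866 CPM in C118. Its part in the other results was not tested beyond the covariate fits. Of 17 thalamus markers 1 fell, Cacna1g, and 3 were positive (median -0.30), and that call was lost without Basal 1, 14 or 27 or C118 13, 20, 33 or 38. edgeR and DESeq2 called 0 of 11 striatum and basal forebrain markers, of which 2 were lower at an unadjusted p under 0.05 and 1 was positive (median -0.23). Cdh10, Fkbp5, Plin4 and Pdgfrb were called with both tissue scores in the fit, at adjusted p under 0.05. With the neocortex score alone, only 1 gene was called lower, so the falls of Cdh10 and Pdgfrb were not both called there.

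Hippocampal subfield lists held calls in both directions, to be read beside the 3.87% called among all tested genes. Of 12 CA1 genes 2 fell (median -0.11), of 16 CA3 and CA2 genes 1 fell (Tyro3, median 0.05), and of 19 dentate gyrus genes 1 rose and 3 fell (median -0.14). Wfs1, a CA1 marker, stood at 192 CPM in Basal and 210.7 CPM in C118 on average (log2 fold change 0.13, adjusted p = 0.83), and Prox1, the dentate granule cell factor, at 176.3 and 160.5 CPM (-0.14, adjusted p = 0.651). Pdzd2 rose from 56.9, 61.3, 47.4 and 51.2 CPM to 105, 77.9, 80.6, 85.4 and 125 CPM (0.80 ± 0.15, adjusted p = 0.00242), without overlap and in each fit without 1 library. The 3 dentate falls (Tdo2, Trpc6 and Plk5) were reduced to 1 without Basal 1, Basal 14 or C118 20 and to 0 without Basal 9, Basal 27, C118 13 or C118 33. Tdo2 (adjusted p = 0.0846) and Trpc6 (adjusted p = 0.0804) were also lost without C118 38, and Plk5 without C118 7 (adjusted p = 0.0533). Of the 2 CA1 falls, 1 (Man1a) was lost without Basal 1, 14 or 27 or C118 13, 20, 33 or 38, and Tyro3 without Basal 14 or 27.

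Interferon-stimulated genes, which viral sensing and type I interferon induce, were high in 2 C118 libraries. Ifit3 had 5.02, 2.36, 4.47 and 4.73 CPM in Basal and 5.36, 3.47, 15.6, 3.17 and 13 CPM in C118. Oasl2 had 3.74, 1.64, 2.84 and 2.03 CPM in Basal and 3.17, 2.43, 11.7, 1.8 and 6.18 CPM in C118. In both genes C118 20 and 38 stood above all other libraries of the pair and the other C118 libraries lay within or near the Basal range. Of 25 such genes, 21 were positive with a median of 0.29, and 1 was called, Stat2 (0.29 ± 0.08, adjusted p = 0.0386), which was lost without any 1 of the Basal libraries, C118 20 or C118 38. Without C118 13 there were 2 calls and without C118 33 there were 3. With all libraries, 1.74% of all tested genes were called higher. The list score was 0.207, 0.069, 1.347, -0.317 and 0.64 in C118 and -0.248 to 0.403 in Basal.

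Without C118 20 and 38 the log2 fold changes over Basal were -0.05 for Ifit3 and -0.06 for Oasl2, in place of 0.97 and 0.98. Those libraries held the highest C118 values of both genes, so lower fold changes without them follow from the choice and are no separate evidence. Against the mean of the other 4 conditioned groups the 5 genes with the smallest p were interferon-stimulated genes, among them Isg15 at 1.57 (interval 1.01 to 2.13, adjusted p = 0.0551), Oasl2 at 1.33 (interval 0.82 to 1.84, adjusted p = 0.0639) and Ifit3 at 1.2 (interval 0.72 to 1.67, adjusted p = 0.0885). Isg15, an interferon-induced ubiquitin-like protein, had 1.07, 0.548, 0.711 and 0.82 CPM in Basal and 0.984, 1.16, 2.95, 0.423 and 1.1 CPM in C118, so it was high in C118 20 and not in C118 38. In the other conditioned groups Isg15 ran from 0.206 to 0.809 CPM, so its difference from them also reflects their low levels. The interferon list medians over Basal were -0.1 for Vehicle, -0.28 for Cort, -0.15 for RU486 and -0.45 for C108. Ifit3b, a near copy of Ifit3 whose reads may be split with it, had 2.41, 2.37, 8.84, 2.38 and 7.13 CPM in C118 and 1.64 to 3.18 CPM in Basal. The windows of Isg15 (chr4:156200819-156201068, minus strand) and Ifit3 (chr19:34583279-34583528, plus strand), RefSeq GRCm38.p6, are shown because they carry the interferon-stimulated response element core, in capitals. The core was searched on both strands as 2 copies of GAAA with 2 bases of any kind between them.
Isg15: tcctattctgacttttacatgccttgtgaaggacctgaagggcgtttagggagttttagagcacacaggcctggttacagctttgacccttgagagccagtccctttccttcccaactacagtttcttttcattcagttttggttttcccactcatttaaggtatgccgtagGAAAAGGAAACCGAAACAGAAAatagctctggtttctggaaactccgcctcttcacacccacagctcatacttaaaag
Ifit3: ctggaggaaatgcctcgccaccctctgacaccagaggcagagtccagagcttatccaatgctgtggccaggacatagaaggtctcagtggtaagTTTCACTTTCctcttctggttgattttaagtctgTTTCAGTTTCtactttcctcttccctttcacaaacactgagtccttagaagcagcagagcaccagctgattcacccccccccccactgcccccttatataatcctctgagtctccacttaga
The Isg15 window holds 3 overlapping matches, 78, 72 and 66 bases before the start, and the Ifit3 window 2 on the other strand, 156 and 122 bases before it. The core was found in 10 of 20 listed interferon genes with a window, in 3.08% of tested genes and in 2.977% of all windows.

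**Figure D5:**
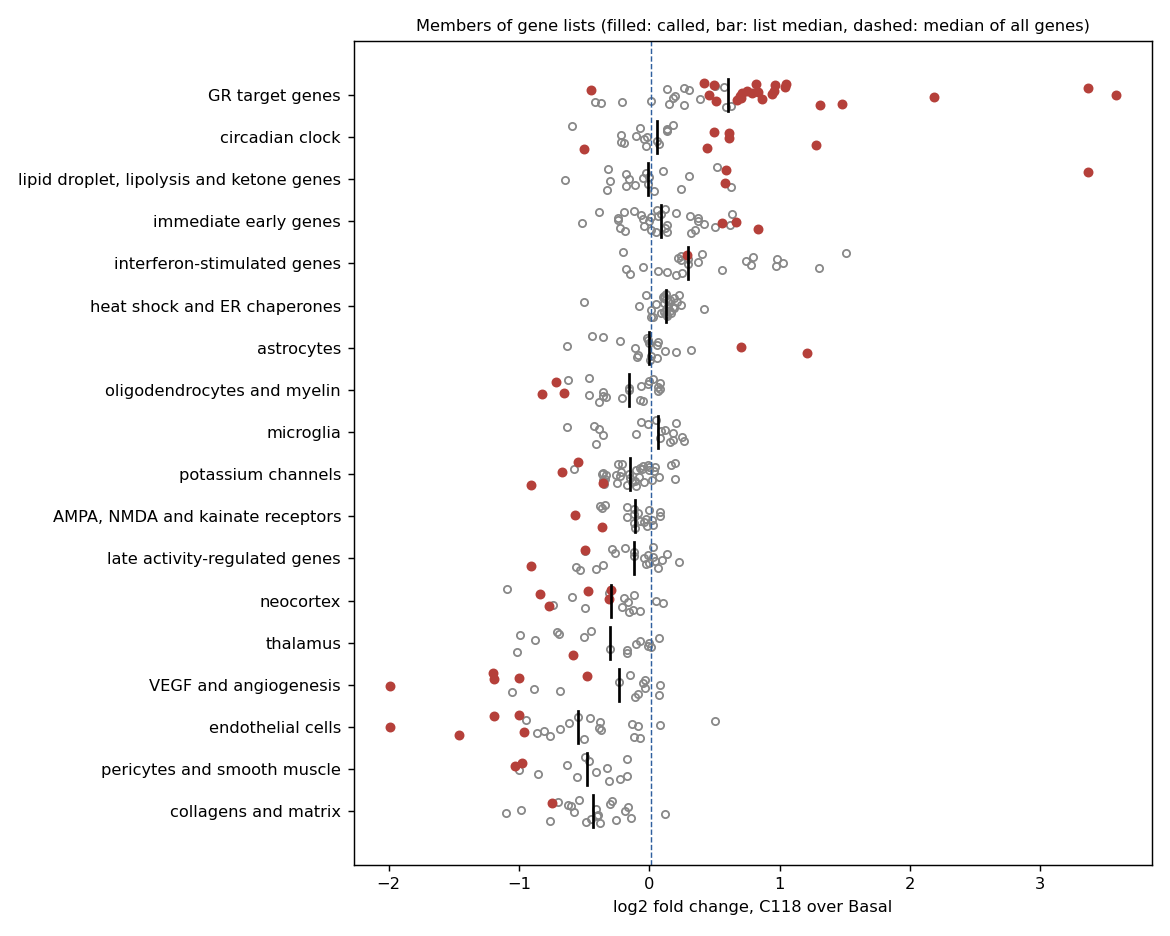
Log2 fold change of C118 over Basal (x axis) for each member of 18 gene lists (rows), with filled red points for called genes, open points for the rest, a black bar for the list median and a dashed line for the median of all genes. The glucocorticoid receptor targets lie to the right (median 0.61), and the endothelial, pericyte and collagen lists to the left (medians -0.54, -0.48 and -0.43).

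Tests of C118 against other conditioned groups called nothing in edgeR: 0 of 16735 genes (0%) against Vehicle, against Cort and against the mean of the other 4 groups. At an unadjusted p under 0.05 there were 1340, 713 and 298 genes, and DESeq2 called 45, 15 and 7. The genes with the smallest p against Vehicle were Plxdc1 (-1.31, interval -1.79 to -0.82, adjusted p = 0.0502), Efna5 (-1.17, interval -1.6 to -0.75, adjusted p = 0.0502), Cacna1g, Camk2d and Necab1 (adjusted p = 0.0687 each). Cacna1g and Necab1 are among the 17 thalamus markers tested, whose score reached 1.158 and 2.058 in Vehicle 3 and 16 and -0.566 to -0.054 in C118. Without Vehicle 23 there were 214 calls against Vehicle and without Vehicle 3 there were 24. Against the mean of the other groups there were 10 without C118 33, and 6 without C118 7 or C118 13. Against Cort there were 3 without C118 33 or C118 38, and 1 without Cort 11.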

How the data were processed

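RNA from 28 male mouse dorsal hippocampus samples was sequenced as stranded, 100 bp paired-end poly(A)-selected libraries, per the labels' protocols. The deposited table holds whole-number read counts per gene, which the authors made with HTSeq 0.6.1 on mm10, with FastQC and MultiQC for quality, per the submitters' processing notes. The aligner, annotation release and strand setting were not given in the sources used here, so overlapping genes may share reads. The 5 summary rows (12.6% to 19.7% of reads) were dropped, leaving 16244993 to 20295147 gene counts a library, and no 2 libraries of a group agreed within sampling noise.

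Counts of 16735 of 50686 genes (filterByExpr, minimum count 10, total 15) were fitted for all 28 libraries with edgeR 4.0.16 (TMM, robust quasi-likelihood) in R 4.3.3. C118 was contrasted with Basal, Vehicle, Cort and the mean of the other conditioned groups, with Benjamini-Hochberg adjustment over all genes and a threshold of 0.05. P-values measure the spread between libraries, which the labels do not tie to separate mice. List scores average log2 CPM (prior count 2). Members and the 50 lists were chosen with earlier results of these data known.

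Named genes were the 15 largest rises and 15 largest falls with a mean of at least 1 CPM, the 10 smallest p, up to 4 called members of each list, a standing set, and the top genes of the difference tests. Alternatives were RLE scaling, other filters, DESeq2 1.42.0, limma 3.58.1 voom, tissue scores as covariates, the 2 groups alone and fits without single libraries. Tested on simulated data for C118 against Basal over 16604 genes, the fit called 61.2%, 77.6% and 95.5% of genes changed 1.5-fold, 2-fold and 4-fold, with 12 false calls. Each simulated gene varied by itself, without the shifts shared across genes seen in these libraries, so these figures need not hold for the real counts. Some genes are not reported here.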

Additional observations from a re-analysis of the deposited data

Results flagged for a closer look

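Over 156 sets of 4 or 5 libraries (named genes and list scores in Basal and in C118), 15 had a highest or lowest library far from the rest of its group. Chance alone flags about 1 in 20 such sets. Basal 9 was the lone high library for Tsc22d3 (63.2 CPM), Sgk1 (130 CPM), Errfi1 (70.3 CPM), Arrdc2 (15.9 CPM), Nr1d2 (83.7 CPM) and Fam83d (4.88 CPM), and the lone low library for Cldn5 (6.9 CPM). Basal 27 was highest for Ciart (4.63 CPM) and for Lcn2 (0.0965 CPM, the other 3 being at 0), and Basal 14 for Npas4 (5.84 CPM). C118 20 was highest for Adamts16 (0.947 CPM) and Cd180 (1.89 CPM), which both fell in C118. C118 13 was highest for the choroid plexus gene Ttr (420 CPM) and for the choroid plexus score (1.262). C118 38 had the lowest score of the mitochondrially encoded genes (-1.027). Adamts16, Cd180, Fam83d, Ciart, Nr1d2, Tsc22d3, Arrdc2 and Errfi1 were called in each fit without 1 library, the library named here included. The log2 fold change of Fam83d was 1.55 in all libraries and 2.29 without Basal 9.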

How the results depend on the processing

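The 648 calls of C118 against Basal became 400 with no filter, 987 by DESeq2, 7 with thalamus and neocortex scores, 10 with the neocortex score alone, 210 without C118 20 and 38, and 192 without C118 33 and 38. The single scores, the endothelial score and the last setting were chosen after seeing the data. Leaving out 1 library gave 209 to 902. Calls against Vehicle (0) became 2 with RLE scaling, 1 with no filter, 2 with the stricter filter, 1 with the 2 groups alone and 45 by DESeq2, with 0 to 214 without 1 library. Calls against Cort (0) became 1 with the 2 groups alone and 15 by DESeq2, with 0 to 3 without 1 library. Calls against the mean of the other groups (0) became 3 with no filter, 4 with both scores and 7 by DESeq2, with 0 to 10 without 1 library. The cause of these shifts was not tested. RLE scaling (656), limma-voom (682), the stricter filter (672), the 2 groups alone (588), the thalamus score alone (538) and the endothelial score (463) kept the first count within 1.5 times. Of the 648 genes, 642, 622, 613, 437, 507 and 285 were among the calls of these 6 fits in the same direction.

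Directions against Basal turned for genes that were not called. Ttr (-0.22) was 2.60 with both scores, 3.72 with the neocortex score, 0.31 with the thalamus score, 0.93 with the endothelial score, 0.42 without C118 20 and 38, 0.38 without C118 33 and 38, and -2.06 to 0.27 without 1 library. Without C118 20 and 38, Ifit3 was -0.052, Ifit3b -0.18 and Oasl2 -0.057. With both scores Camk2d was 0.25, Efna5 0.48, Necab1 0.12 and Plxdc1 0.015, and with the neocortex score 0.37, 0.40, 0.088 and 0.17. Without 1 library Camk2d ran from -0.191 to 0.00 and Npas4 from -0.078 to 0.316, and Npas4 was -0.15 with the endothelial score. No paired analysis was possible because each sample number in the titles is unique and the groups share none. Genes near the detection limit, such as Lcn2, rest on few counts, and small changes may be missed at this depth and group size.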

Other observations

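Several of the largest changes lay in genes outside the lists. Fam83d, a spindle-associated protein, had 1.33, 4.88, 1.02 and 1.5 CPM in Basal and 5.63, 7.24, 7.42, 5.5 and 5.77 CPM in C118 (log2 fold change 1.55 ± 0.27, adjusted p = 0.00103). Mlph (melanophilin), a Rab27 effector, had 1.07, 1.37, 1.22 and 1.21 CPM in Basal and 2.84, 3.47, 2.53, 3.22 and 2.16 CPM in C118 (1.22 ± 0.19, adjusted p = 0.000355). Plekhf1 rose by 1.24 ± 0.23 and Tmem52 by 1.99 ± 0.33 on the log2 scale (adjusted p = 0.00236 and 0.000576). Groups did not overlap for any of these 4 genes. Among the falls, Prokr2, a prokineticin receptor, had 4.81, 2.14, 3.45 and 3.71 CPM in Basal and 1.69, 1.04, 1.11, 1 and 1.71 CPM in C118 (-1.42 ± 0.26, adjusted p = 0.00135). Insc, an adaptor of spindle orientation, had 5.89, 5.15, 5.43 and 5.4 CPM in Basal and 1.97, 2.37, 3.11, 1.43 and 1.15 CPM in C118 (-1.45 ± 0.23, adjusted p = 0.000527). Both were lower in every C118 library, and all 6 genes were called in each fit without 1 library.

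edgeR and DESeq2 called 0 of 31 heat shock and ER chaperone genes, while 28 were positive with a median of 0.13, and 1 was higher at an unadjusted p under 0.05. Of the 13 mitochondrially encoded genes both tools called 0, 0 had an unadjusted p under 0.05 and 12 were positive (median 0.36), and their score ran from -0.884 to 0.47 in Basal and from -1.027 to 0.486 in C118. Of 16 antigen presentation genes 13 were positive (median 0.18), both tools called 0, and 1 was higher at an unadjusted p under 0.05.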
